A study of Mus musculus with 4 samples.

Results

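Accessible chromatin around Maf, the gene deleted in the mutant fetuses of the series, was described over the gene and 500 kb on either side of it. Maf lies on chromosome 8 from 115703253 to 115706894 (GRCm38, RefSeq), a gene body of 3642 bp. All peaks sharing at least 1 bp with another were joined across the 4 lists into regions, and 119 of the 171490 regions on chromosomes 1 to 19 and X fell within this window. Of these, 3 overlapped a stretch across the gene in which the mutant libraries had no peak, and the other 116 made up the surroundings. Within the 116, 85 lay below the gene in coordinate (lower flank), 30 above it (upper flank) and 1 inside the gene body but outside the stretch. The stretch was defined by missing peaks in the mutant libraries, so its calls are given as a description only.

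The libraries were made by Omni-ATAC-seq, which marks open DNA through insertions of Tn5 transposase, from γδ thymocytes sorted as CD4- CD8- CD3e+ TCRγδ+ CD24+ CD45RBlo cells. The genotypes compared were Maf fl/fl Il7r-Cre (KO) and Maf+/+ Il7r-Cre (WT), with 2 libraries each (KO 1, KO 2, WT 1, WT 2). Both genotypes thus carried Cre driven by Il7r, which is active in lymphoid precursors, and differed in the floxed Maf alleles. Fetuses, backcrossed to C57Bl/6 for 5 generations, were at embryonic day 17 to 18, thymi of several fetuses were pooled, and between 15000 and 17000 cells entered each preparation. The labels do not say whether libraries of 1 genotype came from separate pools, and p-values then measure only the spread between these libraries, which may be technical. They also do not give the interval between the loxP sites.

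c-Maf, the product of Maf, is a basic leucine zipper transcription factor of the large Maf family, which binds Maf recognition elements as dimers. In T cells it is known for driving cytokine genes such as Il4, Il10 and Il21, and in the thymus it is needed for the γδ T cells that make IL-17. The gene is read from the reverse strand, so its upper end on the chromosome is its transcription start, and enhancers of such developmental regulators often lie far out in neighbouring gene-poor DNA. The window held 1 other protein-coding gene, Wwox, an oxidoreductase gene of a common fragile site, whose upper end lay 351 kb below Maf. The remaining entries were the non-coding RNA genes Gm39256, Gm51552, Gm30712, Gm30925, Gm31037, Gm31106, Gm31164 and Gm31225 and the small nuclear RNA gene LOC115487016.

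The deposited lists held 130935 and 120141 peaks in KO 1 and KO 2, and 102718 and 132179 in WT 1 and WT 2. WT 1 had the shortest list, and the KO lists lay between both WT lists. Depth is described by the number of peaks, since read totals were not analysed here. All 11 marker genes of γδ T cells given here, among them Cd3e, Trdc, Il7r and Sox13, had a gene end with a peak no more than 1 kb away in every library. Of markers of other cells, Cd4, Cd8a and Cd8b1 had such a peak in every library, 1 of 3 B cell genes (Cd79a) and 0 of 3 myeloid genes did. Erythroid genes with a peak numbered 3 in KO 1 and 1 in KO 2, against 1 in WT 1 and 2 in WT 2, of 3. Thymic epithelial genes with a peak numbered 3 in both KO libraries, against 2 in WT 1 and 3 in WT 2, of 3. The part of these cells in the results below was not tested.

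Across the start of Maf the WT libraries had broad and tall peaks and the KO libraries had none. The stretch without KO peaks ran from 115705095 to 115708471, 3377 bp, of which 1800 bp lay inside the gene and 1577 bp beyond its start. In it 0 peaks of KO 1 and KO 2 began, against 3 of WT 1 and 4 of WT 2. Peaks covered 0 bp of the stretch in both KO libraries, against 1468 bp in WT 1 and 1426 bp in WT 2. Both WT libraries thus had close to the same length of open DNA here. Closed chromatin and deleted DNA cannot be told apart in this stretch, nor can fewer cells with an open start and less opening in each cell.

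The WT peaks of the stretch stood in the same places in both libraries. The one inside the gene spanned 115705864 to 115705974 in WT 1 and 115705837 to 115705990 in WT 2, and its −log10 q was 15.0 and 15.9. A broad peak at the transcription start spanned 115706902 to 115707604 in WT 1 and 115706977 to 115707609 in WT 2, where its −log10 q was 16.0 and 23.8. It covered 703 bp in WT 1 and 633 bp in WT 2, and was wider than 99.1% and 97.6% of the peaks of these libraries. The tallest peak of the stretch stood upstream, with its summit 1057 bp beyond the start in both WT libraries, at the same base. It spanned 115707772 to 115708425 in WT 1 and 115707722 to 115708103 in WT 2, and its −log10 q was 89.9 and 141. Another peak of WT 2, from 115708215 to 115708481 with a −log10 q of 16.6, covered ground that the wide peak of WT 1 reached too.

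By −log10 q the tallest peak stood at the percentiles 94.6 and 94.7 of its WT lists. By fold enrichment, which is the summit over the background around it, it stood at 90.6 and 82.4. The broad start peak ranked at 65.8 and 66.9 by −log10 q in WT 1 and WT 2, and at 50.8 and 37.2 by fold enrichment. The peak inside the gene ranked at 64.0 and 57.2 by −log10 q and at 49.3 and 24.8 by fold enrichment. The peaks of the stretch thus ranked lower by fold enrichment than by −log10 q in both WT libraries.

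Genome-wide, few tall WT peaks lacked a KO peak. Of the 5568 peaks of WT 1 at least as tall as the one upstream of Maf, 1 overlapped no KO peak (0.018%), which was that peak itself. In WT 2 it was 2 of 6977 (0.0287%), again with the Maf peak among them. Gaps between neighbouring KO peaks that held the starts of at least 3 peaks of each WT library numbered 57 of 147856 (0.0386%), and 2 of 61748 (0.00324%) among those no longer than the Maf stretch. In the reverse direction, gaps between WT peaks holding at least 3 peaks of each KO library numbered 127 of 141503 (0.0898%), with 1 of 59331 (0.00169%) no longer than 3377 bp. Because the Maf stretch was picked for lacking KO peaks, these shares describe it and test nothing.

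**Figure D1:**
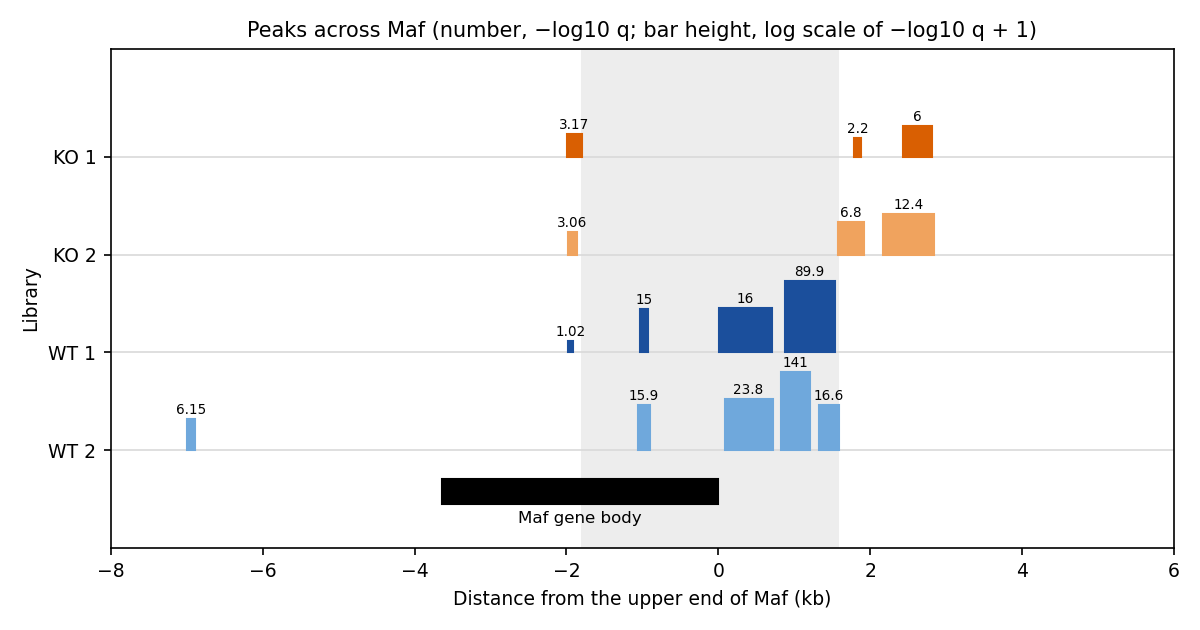
Peaks of the KO libraries (upper rows, orange) and the WT libraries (lower rows, blue) by distance in kb from the upper end of Maf, its transcription start. Each bar is a peak, its width to scale and its height on a log scale of −log10 q + 1, with the −log10 q printed above; the grey band is the stretch of 3377 bp without KO peaks, which holds 3 peaks of WT 1 and 4 of WT 2.

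At both borders of the stretch the KO libraries had peaks of their own. Inside the gene, a weak peak ended at 115705094 in KO 1 and at 115705036 in KO 2, with a −log10 q of 3.17 and 3.06, and WT 1 had one of 1.02 at the same place. WT 2 had no peak there. Upstream, KO 1 had a peak from 115708680 to 115708773 with a −log10 q of 2.20 and KO 2 one from 115708472 to 115708810 with 6.80, and their summits lay 1816 and 1817 bp beyond the start. The KO 2 peak met the last WT 2 peak at its rim, so joining gave a region from 115707722 to 115708810 with calls in every library, although its tall part was WT alone. Next came a region from 115709069 to 115709732, called in both KO libraries and in neither WT library. It covered 381 bp in KO 1 and 664 bp in KO 2, with a −log10 q of 6.00 and 12.4, and was wider than 91.0% and 98.3% of their peaks. On the other side of the gene, WT 2 alone had a peak at 115699897 to 115700007, 3.25 kb away, with a −log10 q of 6.15.

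The borders depend on weak KO peaks at the lower side. With KO 2 alone the stretch was 3435 bp, and with KO 1 alone 3585 bp. When KO peaks needed a −log10 q of at least 5, it ran from 115630043 to the same upper border and measured 78429 bp, since none of the KO peaks between there and the stretch, the one inside the gene included, reached that value.

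Away from the gene, both genotypes had many peaks. In the surroundings of Maf the KO libraries had 82 peaks each, against 50 in WT 1 and 79 in WT 2. The mean was 82 ± 0 peaks in KO and 64.5 ± 20.5 in WT (SD, n = 2 each). The genotypes did not overlap, and WT 2 lay much closer to the KO libraries than to WT 1 (exact permutation p = 0.333, the smallest that 2 libraries against 2 can give). Per 100000 peaks of the library the numbers were 62.6 and 68.3 in KO 1 and KO 2, against 48.7 and 59.8 in WT 1 and WT 2. Bases covered overlapped, at 16007 and 17597 bp in KO 1 and KO 2, against 10073 and 16746 bp in WT 1 and WT 2 (exact permutation p = 0.667).

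The lower flank was the denser side in every library. It held 62 peaks in each KO library, against 39 in WT 1 and 60 in WT 2, and the upper flank held 19 in each KO library, against 10 in WT 1 and 19 in WT 2. Regions were most frequent between 200 and 300 kb below Maf, with 27 regions, 12 of them shared by all 4 libraries. On the upper side, 12 regions lay in the first 100 kb and between 3 and 7 in each further 100 kb.

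**Figure D2:**
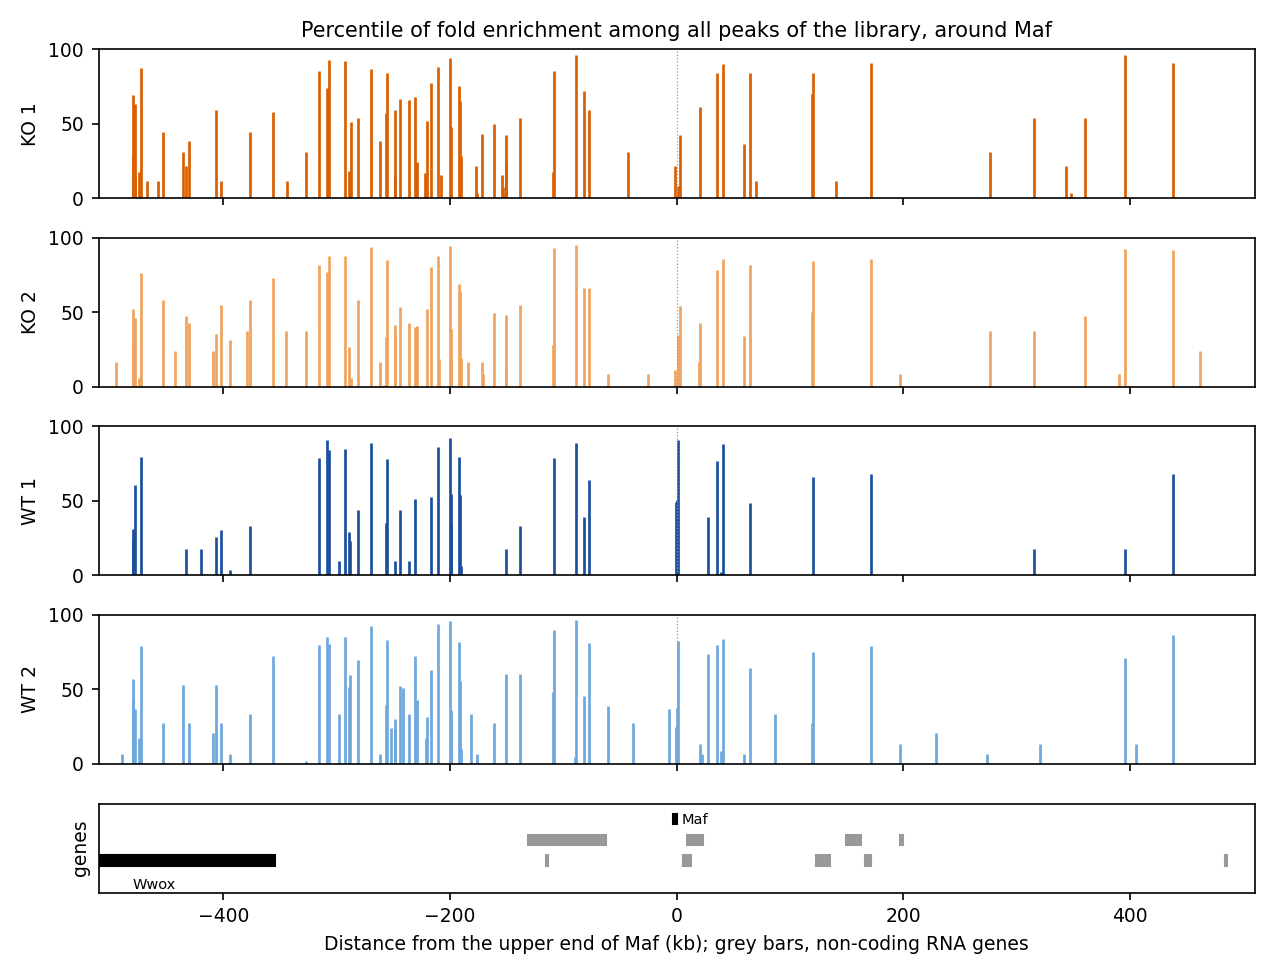
Percentile of fold enrichment among all peaks of a library (0 to 100, vertical axes) for each called region, by distance in kb from the upper end of Maf, in KO 1, KO 2, WT 1 and WT 2 from top to bottom. Genes are drawn in the lowest panel; a dotted line marks Maf, and the lower flank on the left holds more lines than the upper flank on the right in all 4 libraries.

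Of the 116 surrounding regions, 74 were called in at least 2 libraries and 42 in 1 library alone (15 in KO 1, 12 in KO 2, 1 in WT 1 and 14 in WT 2). Among the 74, 41 were called in all 4 libraries (55.4%, against 64.2% of such regions genome-wide). Regions called in both KO libraries and neither WT library (KO-only) numbered 6 (8.11%, genome 4.34%), and those with a peak in WT 1 and WT 2 but in no KO library (WT-only) numbered 4 (5.41%, genome 2.89%). Missing in WT 1 alone were 14 (18.9%, genome 10.6%), and missing in WT 2 alone 3 (4.05%, genome 1.27%). Missing in KO 1 alone was 1 and missing in KO 2 alone were 0, with genome shares of 2.71% and 2.59%.

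These counts turned on the presence rule. At a −log10 q of at least 5, KO-only regions numbered 10 and WT-only regions 1 of 54, with genome shares of 4.04% and 2.25%. A region with a weaker peak in the other genotype can then count as KO-only or WT-only. With equal numbers of peaks per library they were 10 and 3 of 63 regions, with genome shares of 3.88% and 4.06%, so that genome-wide WT-only regions became the more frequent kind. With 1 library left out, the rule asked for fewer lists. KO-only regions then numbered 18 of 66 without KO 1, 21 of 65 without KO 2, 9 of 70 without WT 1 and 20 of 65 without WT 2. The genome shares were 13.3%, 20.5%, 5.89% and 17.1%. WT-only regions numbered 4, 5, 18 and 5 of the same totals in the same order, with genome shares of 6.11%, 6.20%, 17.5% and 8.41%.

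**Figure D3:**
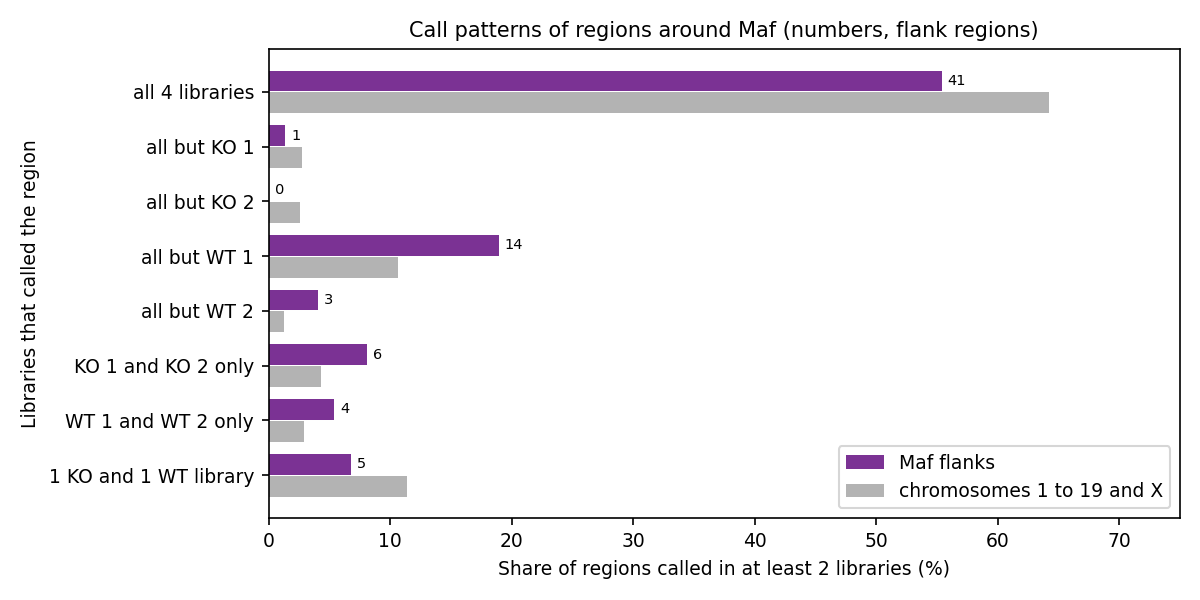
Share of regions called in at least 2 libraries (%, horizontal axis) that had each call pattern, for the surroundings of Maf (purple, 74 regions, numbers beside the bars) and for chromosomes 1 to 19 and X (grey, 122507 regions). Regions called in all 4 libraries were 55.4% around Maf and 64.2% genome-wide, and those missing in WT 1 alone 18.9% and 10.6%.

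The WT-only regions outside the stretch were 2 on each side. The nearest one above the gene, at 115733998 to 115734200 and 27.1 kb away, reached a −log10 q of 5.44 in the first WT library and 23.5 in the second. A narrower one followed at 115745807 to 115745907, 38.9 kb away, with 1.63 and 3.60. Both lay in a cluster with regions called in all 4 libraries at 115742666 to 115743053 and 115747599 to 115748196, 35.8 and 40.7 kb away. Those shared neighbours overlapped between genotypes in fold rank. Their percentiles of fold enrichment among shared regions were 73.9 and 67.3 in KO, against 70.2 and 66.3 in WT, for the first, and 83.4 and 78.1 in KO, against 84.3 and 73.2 in WT, for the second. By width rank both KO libraries lay above both WT libraries, with 84.1 and 79.7 in KO, against 77.2 and 74.4 in WT, for the first, and 94.4 and 94.2 in KO, against 89.0 and 92.8 in WT, for the second.

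Below the gene, the WT-only regions were at 115408563 to 115408701 and 115418149 to 115418364, 295 and 285 kb away. By −log10 q, the first reached 2.15 (WT 1) and 5.32 (WT 2), and the second 4.31 and 19.4. All 4 WT-only regions thus had a lower −log10 q in WT 1, the library with the shortest list, than in WT 2. Only the one 27.1 kb above Maf passed a −log10 q of 5 in both.

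The KO-only regions were 3 on each side. Those below Maf stood at 115419039 to 115419167 (284 kb away), 115534925 to 115535042 (168 kb) and 115555927 to 115556102 (147 kb). Their −log10 q in KO 1 was 9.63, 6.12 and 3.49, and in KO 2 it was 3.63, 3.66 and 3.34. The first of them lay within 1 kb of the WT-only region at 115418149. Above Maf, besides the one at the border of the stretch, KO-only regions stood at 115983206 to 115983326 (276 kb) and 116066810 to 116066977 (360 kb). The nearer had a −log10 q of 4.13 in KO 1 and 6.89 in KO 2, and the farther 8.43 and 9.25. The median width was 148.5 bp for the KO-only regions around Maf and 171 bp for the WT-only ones, against 295 bp for those called in all 4 libraries. Genome-wide, KO-only regions had a median of 143 bp and shared ones of 274 bp.

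Regions called in all 4 libraries could be compared by rank. In each library, all 78650 such regions were ranked by fold enrichment, which is given relative to the background of the same library, and the percentile of the rank was compared between genotypes. Ranks were turned into normal scores and tested with limma over all 78650 regions. No region of the genome passed an adjusted p of 0.05 in either direction (0 called, 0%), and so none of the 41 around Maf did, the smallest adjusted p there being 0.335 (limma). At an unadjusted p under 0.05 stood 11 of the 41 (26.8%), 8 higher and 3 lower in KO, and 6751 regions genome-wide (8.58%).

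More of the shared regions around Maf ranked higher in KO than lower. Over the 41, the median difference in percentile, KO minus WT, was 4.58 points, against −0.0456 over all shared regions, and it was 7.43 points without WT 1. The KO mean was higher at 28 and lower at 13. Both KO libraries were above both WT libraries at 16 of the 41 (39.0%, genome 18.6%), and both were below at 7 (17.1%, genome 18.1%). The median percentile of the 41 was 54.4 in KO 1 and 49.2 in KO 2, against 42.0 in WT 1 and 49.9 in WT 2. KO 2 and WT 2 thus lay within 1 point, and the medians did not separate the genotypes. The spread between libraries of a genotype in this median was 4.76 points (pooled SD, n = 2 each), about the size of the difference. Fold enrichment at the end of the lists also differed, with a median of 2.88 and 2.85 in KO 1 and KO 2, against 2.78 and 2.73 in WT 1 and WT 2, over peaks with a −log10 q under 1.1. Its part in the rank differences was not tested.

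On the upper flank the direction was the same at each of its 7 shared regions, with a median of 17.5 points. Both KO libraries lay above both WT libraries at 5 of them (71.4%, genome 18.6%). On the lower flank 21 of 34 ranked higher and 13 lower in KO, with a median of 3.90 points. The upper flank median ran from 15.9 to 22.5 points when a library was left out, but without KO 1 the KO mean was higher at 5 of the 7, and without WT 2 at 6. The difference between the sides was not tested.

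**Figure D4:**
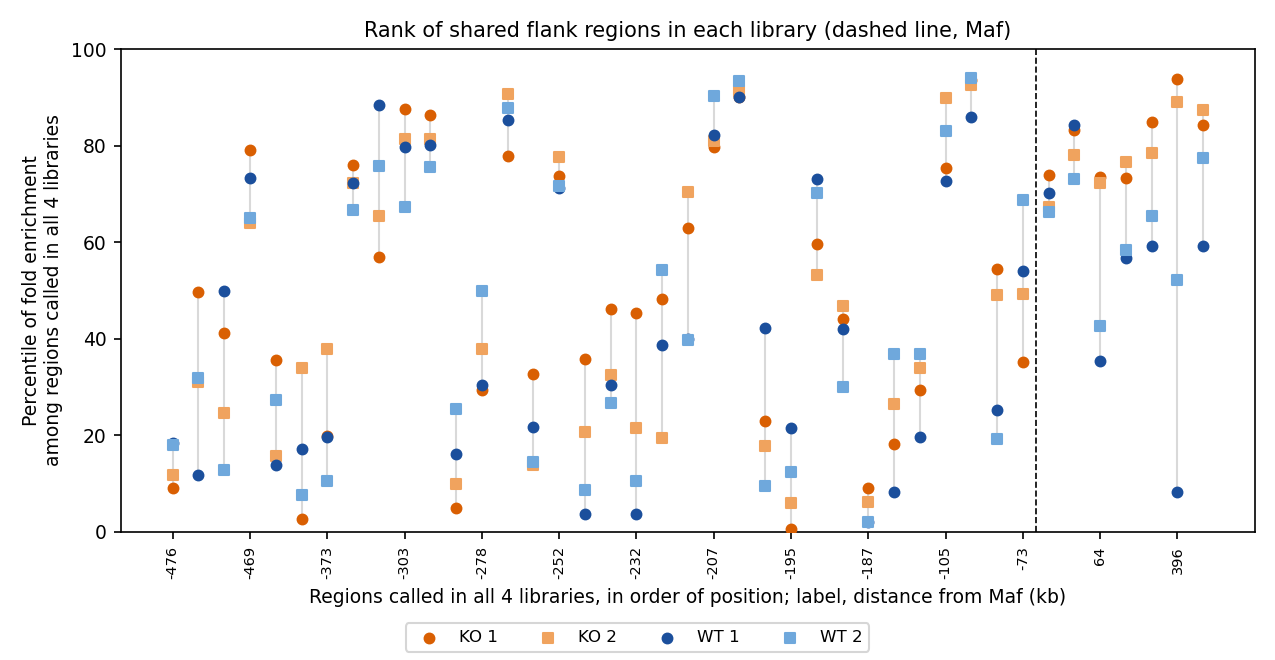
Percentile of fold enrichment among all regions called in all 4 libraries (vertical axis) for the 41 shared regions around Maf, in order of position, labelled with the distance from Maf in kb. Orange points are KO 1 and KO 2, blue points WT 1 and WT 2, and the dashed line marks Maf. Right of it, both KO points lie above both WT points at 5 of 7 regions (71.4%, against 18.6% of shared regions genome-wide).

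The largest gap lay 396 kb above Maf, at 116102467 to 116102761, 88.0 kb from the nearest gene end. It stood at the percentiles 93.8 in KO 1 and 89.0 in KO 2, against 8.19 in WT 1 and 52.1 in WT 2. Its −log10 q was 73.9 and 67.3 in KO 1 and KO 2, against 2.91 and 21.0 in WT 1 and WT 2. The KO libraries were close to each other and high, while the WT libraries were far apart and lower. The difference was 2.05 ± 0.46 in normal scores (SE, n = 2 each), with an adjusted p of 0.335 in limma. Without WT 1 it was 1.33, and its sign was positive under each of the 6 alternatives run for it. As the genotypes did not overlap here, leaving out a library or adding the replicate block could not change the sign. Ranked by −log10 q in place of fold enrichment, the difference was 1.93.

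Closer in, the region at 115771099 to 115771346, 64.2 kb above Maf, stood at 73.6 and 72.3 in KO 1 and KO 2, against 35.4 and 42.5 in WT 1 and WT 2. Libraries of each genotype lay close together, the groups did not overlap, and the difference was 0.89 ± 0.23 (SE, adjusted p = 0.378 in limma). Another region next to the upper end of Gm31106, 64 bp from it at 115878200 to 115878448, stood at 85.0 and 78.6 in KO, against 59.2 and 65.4 in WT. Between these, the region at 115826598 to 115826842 stood at 73.4 and 76.6 in KO, against 56.7 and 58.4 in WT. Farther out, the region at 116144275 to 116144512 stood at 84.2 and 87.3 in KO, against 59.2 and 77.4 in WT. All of these were well above the middle of the ranks in the KO libraries.

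Below Maf the higher ranks in KO were found at 3 regions of the lower flank among the 5 largest gaps. At 115625125 to 115625403, inside Gm39256, the percentiles were 54.4 and 49.1 in KO 1 and KO 2, against 25.3 and 19.1 in WT 1 and WT 2. At 115489667 to 115489939 they were 62.9 and 70.4 in KO, against 39.9 and 39.8 in WT, and at 115470661 to 115470921 they were 45.4 and 21.5 in KO, against 3.64 and 10.5 in WT. The groups did not overlap at any of these, and the adjusted p in limma was 0.413 to 0.483.

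Lower ranks in KO were found on the lower flank, with 7 of 34 regions whose groups did not overlap (20.6%), near the genome share given above. At 115398060 to 115398415, 305 kb below Maf, the percentiles were 56.8 and 65.4 in KO 1 and KO 2, against 88.4 and 75.8 in WT 1 and WT 2. Its −log10 q was 47.6 and 92.4 in KO, against 93.5 and 139 in WT. At 115629836 to 115630042, inside Gm39256 and near the region of that gene that ranked higher in KO, they were 35.2 and 49.2 in KO, against 53.9 and 68.7 in WT. At 115514471 to 115514864 they were 59.6 and 53.1 in KO, against 73.1 and 70.3 in WT. The remaining gaps of the 5 were at low ranks, at 115507582 to 115507792 with 0.497 and 5.85 in KO, against 21.4 and 12.3 in WT, and at 115417225 to 115417504 with 4.95 and 9.79 in KO, against 16.1 and 25.4 in WT. The adjusted p of these 5 in limma was 0.476 to 0.721.

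The highest ranked regions of the neighbourhood were picked by mean percentile over the libraries, among regions called in all 4 libraries. That they were open in both genotypes follows from this choice. They stood at 115618053 to 115618665 inside Gm39256 (84.6 kb below Maf), 115506749 to 115507135 (196 kb), 115437263 to 115437676 (266 kb), 115495980 to 115496388 (207 kb) and 115414139 to 115414456 (289 kb). The first had percentiles of 93.6 and 92.5 in KO, against 85.9 and 94.0 in WT, and the second 90.0 and 91.2 in KO, against 90.1 and 93.4 in WT. The third had 77.8 and 90.7 in KO, against 85.2 and 87.9 in WT. Genotypes overlapped at these 3. At the fourth both KO libraries lay below WT, with 79.8 and 80.9 in KO, against 82.1 and 90.3 in WT, and at the fifth both lay above, with 86.4 and 81.5 in KO, against 80.1 and 75.6 in WT. Gaps here were smaller than at the regions above that were picked for large gaps, which follows from that choice.

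The shared regions around Maf were also compared by width. The rank of the bases covered by each library had a median difference of 3.42 points, KO minus WT, against −0.143 over all shared regions. The median width percentile of the 41 was 59.8 in KO 1 and 61.5 in KO 2. It was 49.3 in WT 1 and 54.1 in WT 2, so these medians did not overlap between genotypes. The spread between libraries of a genotype in this median was 2.54 points (pooled SD, n = 2 each), smaller than the difference. Both KO libraries were above both WT libraries at 12 of 41 (29.3%, genome 16.8%) and below at 6 (14.6%, genome 16.9%). With limma, 0 of the 41 and 0 of all 78650 passed the adjusted threshold (0%), and 5 of the 41 (12.2%) had an unadjusted p under 0.05, against 6.46% genome-wide. On the upper flank both KO libraries were wider in rank at 6 of 7 regions, and on the lower flank they were above at 6 and below at 6 of 34. The median difference was 1.05 points without WT 2, against 3.42 with all libraries.

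The largest gap in width with KO lower was at the highest ranked region, 84.6 kb below Maf in Gm39256. Its peaks covered 237 bp in KO 1 and 342 bp in KO 2, against 569 bp in WT 1 and 613 bp in WT 2, while its summit ranked alike. As width percentiles these were 57.6 and 76.0 in KO, against 95.8 and 94.8 in WT, with the smallest adjusted p of the flanks for width (0.577 in limma). Others lower in KO were at 115568495 to 115568744, with 125 and 138 bp in KO, against 119 and 250 bp in WT, and at 115227024 to 115227247 inside Wwox, with 111 and 182 bp in KO, against 149 and 201 bp in WT. In base pairs these groups overlap, and they separate in rank only. Greater width in KO was found at 115300220 to 115300547 in Wwox, with 328 and 267 bp in KO, against 117 and 259 bp in WT. It was also found at 115470661 to 115470921, with 134 and 238 bp in KO, against 68 and 130 bp in WT, and at 115516126 to 115516509, with 314 and 331 bp in KO, against 195 and 213 bp in WT.

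**Figure D5:**
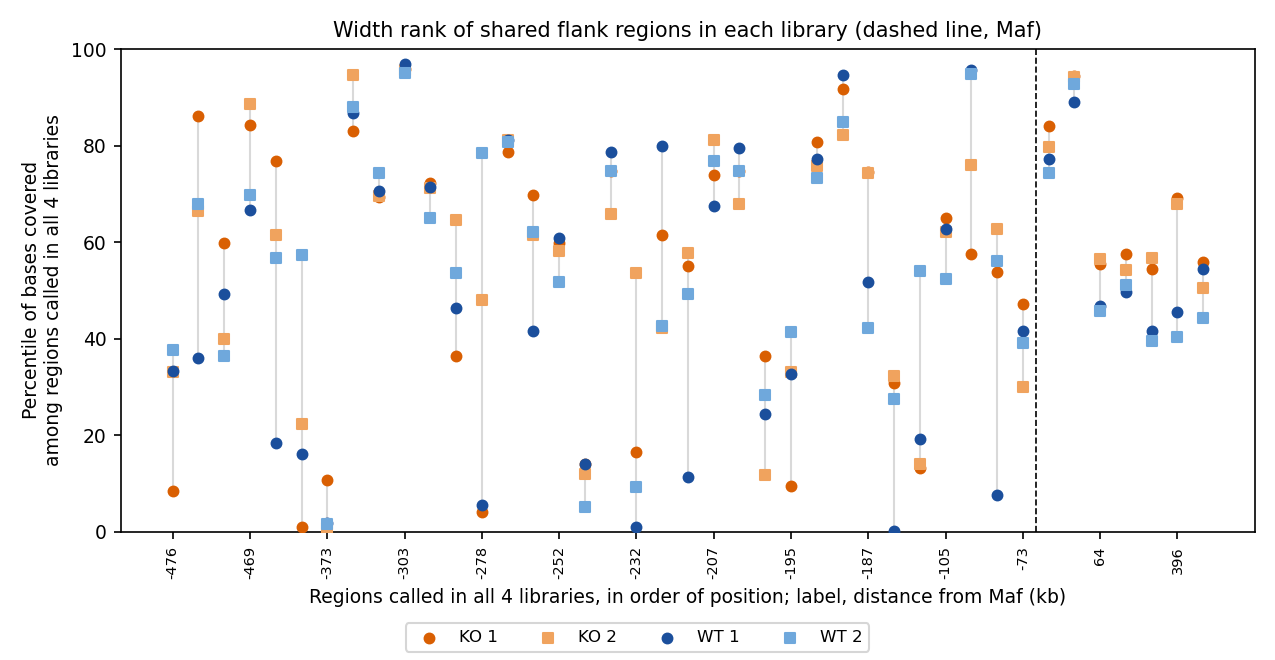
Percentile of the bases covered, among all regions called in all 4 libraries (vertical axis), for the 41 shared regions around Maf in order of position, labelled with the distance from Maf in kb. Orange points are KO 1 and KO 2, blue points WT 1 and WT 2; at the region 85 kb below Maf the KO points lie at 57.6 and 76.0 and the WT points at 95.8 and 94.8.

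Other genes of the window had little accessible chromatin at the ends that lay inside it. The lower end of Wwox, at 114439635, lay outside the window and was not examined. Within the window, 23 regions fell inside Wwox, 7 of them shared by all 4 libraries and 0 KO-only or WT-only. Gm39256 held 6 regions, 4 of them called in all 4 libraries, and also 0 KO-only or WT-only. Both totals include regions called in 1 library, which cannot be KO-only or WT-only. The genome shares were 4.34% and 2.89% of regions called in at least 2 libraries. At such shares, counts of 0 in so few regions are not read as a trait of these genes. Apart from Maf, 3 genes had a region within 1 kb of a gene end. These were Gm31106, with the shared region described above, Gm30712, with a peak of WT 2 alone, and Gm31164, with a region called in KO 2 and WT 2. RefSeq start windows of 300 bases were at hand for 6 of the non-coding genes, and 0 of them overlapped a region.

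Under the same rule of 500 kb, 5 other genes of the Maf family had between 146 and 229 regions. Their windows kept the gene and its ends, whereas the Maf shares above leave out the 3 regions of the stretch. Of those 3, 2 were WT-only and 1 was called in all 4 libraries, so the sets are not alike. Around large Maf genes, KO-only and WT-only regions numbered 2 and 8 of 110 regions called in at least 2 libraries at Mafa (1.82% and 7.27%). At Nrl they numbered 7 and 3 of 122 (5.74% and 2.46%). Around the small Maf genes, which lack a transactivation domain, they numbered 6 and 5 (3.77% and 3.14%) at Maff. They were 9 and 0 of 170 (5.29% and 0%) at Mafg, and 6 and 1 of 124 (4.84% and 0.806%) at Mafk. The genome shares were 4.34% KO-only and 2.89% WT-only. Regions called in all 4 libraries made up 63.6% to 74.1% at these 5 genes (genome 64.2%), and each had at least 1 such region over its gene body.

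At the edge of the window, the outermost region inside it on the lower side was called in KO 2 alone at 491 kb, and the first outside, at 501 kb, in KO 1, KO 2 and WT 2. On the upper side, the outermost inside was called in KO 2 alone at 462 kb, and the first outside in KO 1 alone at 521 kb.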

How the data were processed

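The authors deposited a narrowPeak file for each library, and peaks were thus not called on pooled libraries. Per the submitters' processing notes, the tools were MACS2 2.1.1, Bowtie2 2.3.4.1, Picard, deepTools 3.1.2, bedtools, cutadapt and Trim Galore, and the builds GRCm38 and mm10. For read shifting, duplicate handling and peak settings, the sources used here give nothing. Each deposited peak carried the authors' whole-number score, a fold enrichment (a ratio of summit to local background) and −log10 p and −log10 q values, all made within 1 library. These served to rank, filter or describe peaks within a list. Where −log10 q values of several libraries stand side by side above, they are a description, and the part of depth in them was not tested.

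Peaks on chromosomes 1 to 19 and X were used, leaving out 312 to 462 peaks per library on other sequences. Regions, the stretch and percentiles were computed with Python 3.11.15 and pandas 2.3.3. A region took the highest fold of a library's peaks and the bases they covered. Normal scores of ranks were tested with limma 3.58.1 (R 4.3.3), 2-sided, with Benjamini-Hochberg adjustment over all regions called in all 4 libraries, and the script was tested on simulated data. Calls were compared with the share over all regions called in at least 2 libraries. Markers were read within 1 kb of either gene end. Alternatives changed the presence rule, merging, window, ranked column, pairing and libraries used.

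Named regions were every peak in and beside the stretch, every KO-only or WT-only region, the 5 largest gaps in fold rank each way, the 3 largest in width rank each way where genotypes did not overlap, the 5 with the highest mean rank, and those at gene ends. The members and lists were chosen with earlier results of these data known. The other upper flank regions described by rank were named after their values were seen. Values of some genes among the markers and Maf relatives are not reported here.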

Additional observations from a re-analysis of the deposited data

How the results depend on the processing

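There were 2 libraries per genotype, read totals were not analysed here, WT 1 had the shortest list, and the part of depth in calls and ranks was not tested. The stretch across Maf measured 78429 bp in place of 3377 bp when KO peaks needed a −log10 q of at least 5. KO-only regions around Maf, 6 as reported, were 10 of 54 at a −log10 q of at least 5 (genome 4.04%), 10 of 63 with equal numbers of peaks (genome 3.88%) and 9 of 70 when a peak had to cover 0.5 of the region (genome 5.20%). WT-only regions, 4 as reported, were 1, 3 and 2 under these rules (genome 2.25%, 4.06% and 3.31%). Within 250 kb, KO-only, WT-only and shared regions numbered 3, 2 and 23, and the genome shares stayed at 4.34%, 2.89% and 64.2%. Leaving out 1 library each, KO-only regions ran from 9 to 21 and WT-only regions from 4 to 18, because fewer lists had to meet the rule; the cause of the other shifts was not tested. The count of regions past the limma threshold stayed at 0 for fold rank and for width rank under every alternative run, including the replicate block, where the smallest adjusted p around Maf was 0.274 for fold rank and 0.711 for width rank. The labels do not say that replicate numbers mark shared pools, and the deviations of KO 1 and WT 1 correlated at 0.106 over 78650 regions. For calls no paired analysis was possible because they come from no test. The median fold rank difference ran from 3.48 within 250 kb to 7.43 points without WT 1, and the median width rank difference from 1.05 points without WT 2 to 5.51 without KO 2. Of the 24 shared regions named outside the stretch, the fold rank difference had 1 sign under the alternatives that gave it a value at 17, and the width rank difference at 20. Where the genotypes did not overlap, leaving out a library or adding the replicate block could not change the sign. The genotypes did not overlap in fold rank at these 17, and several were named for that, so the count largely restates the naming rule.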
